A study of Mus musculus with 16 samples.

Results

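Kdm5C and H3K4me1 were deposited over 2321 shared regions of the mouse genome, and 210 of them (9.05%) lay more than 2 kb from both ends of every gene of a GRCm38 gene table. These 210, called distal Kdm5C regions here, were chosen by position alone, and no measured value entered the rule. The other 2111 regions lay within 2 kb of a gene end. H3K4me3 had been counted over a separate set of 35996 regions, and 202 of those overlapped a distal Kdm5C region by at least 1 bp. Of the 210 distal regions, 192 overlapped 1 H3K4me3 region, 6 overlapped 2 and 12 overlapped none.

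Chromatin immunoprecipitation with single-end sequencing was run on hippocampus, a brain structure needed for memory, of adult male mice 2 to 4 months old. The H3K4me3 groups were Kdm5c KO and WT mice under standard housing, Kdm5c KO and WT mice after 1 h of novelty (a single animal placed in a box with tubing and toys), and a line written ifKO with its controls, written ifWT here. Each of these 6 groups had 2 libraries, and each library came from a pool of 2 mice. Kdm5C and H3K4me1 had 1 KO and 1 WT library each, so nothing measured for them could be tested over replicates. The KO cohort with H3K4me3 had a mixed F1 background of C57 and 129, while ifKO, ifWT and the Kdm5C and H3K4me1 mice were C57BL/6J. Controls were littermates per the labels. The sources used here do not say how either Kdm5c allele was made or which cells lose the gene in ifKO. H3K3me3 stands in the title of 1 ifWT library whose labelled antibody is against H3K4me3, and it was counted with the H3K4me3 libraries.

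Kdm5c is an X-linked gene for a demethylase that removes methyl groups from lysine 4 of histone H3, acting on the trimethylated and dimethylated forms. H3K4me3 marks active promoters and H3K4me1 is common at enhancers, so an enzyme that takes H3K4me3 toward lower methylation can affect the balance of both marks. In people, mutations of the gene cause an X-linked intellectual disability. A region far from the ends of genes can still hold a promoter, because many genes have internal or alternative transcript starts, and it can also be an enhancer.

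The distal Kdm5C regions were narrow (130 to 1209 bp, median 365 bp) and lay a median of 5068 bp and at most 80.5 kb from the nearest gene end. A protein-coding gene contained 161 of them, a lncRNA gene 3 and a transcribed pseudogene 1, and 45 lay between genes. The gene table gives gene bounds without exons or strand, so exons and introns could not be told apart. The most came from chromosome 7, with 23, and 2 were on the X chromosome, at Eif2s3x and Flna. Each region is named here by the gene that contains it or else by the nearest gene, which gave 207 gene names. Promoter windows from RefSeq (250 bases before to 50 after a transcript start, build GRCm38.p6) allowed a further split of the 202 distal regions on chromosomes other than 18, for which the table held no windows. Of these, 100 had a RefSeq transcript start within 2 kb and 67 overlapped a promoter window itself. Another 59 lay inside a gene with no listed start within 2 kb, and 43 lay between genes.

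The promoter windows under distal regions were rich in CG dinucleotides compared with all RefSeq windows. The 77 windows of 67 genes held a median of 25 CG sites in 300 bases, against 7 over all 32817 windows of the table. The ratio of observed to expected CG sites had a median of 0.877 in them, against 0.383 over all windows, and it passed 0.6 in 70 of 77 (90.9%), against 35.8% of all. The E-box CACGTG was present in 9 of the 77 windows (11.7%) and in 7.15% of all windows. The cyclic AMP response element TGACGTCA was present in 4 (5.20%) and in 1.79% of all, the AP-1 motif TGANTCA in 4 (5.20%) and in 7.81% of all, and the E2F motif TTCCCGC in 6 (7.79%) and in 4.60% of all. Both strands were searched, the letters of no motif contain those of another, and a match is a description of letters only. Windows under the other Kdm5C regions were not summarised, so whether CG or motif content is particular to the distal regions was not tested. Among distal regions that overlap a window, the 2 with the highest Kdm5C level in WT (Pom121 and Mga) and the 2 with the largest called H3K4me3 rise in KO (Slc29a1 and Nktr) are shown, with CG sites in capitals. They held 41, 24, 20 and 36 CG sites in that order, and of the 4 motifs they held 1 match, the E-box in the Slc29a1 window.
Pom121 (GRCm38.p6 chr5:135394497-135394796, minus strand): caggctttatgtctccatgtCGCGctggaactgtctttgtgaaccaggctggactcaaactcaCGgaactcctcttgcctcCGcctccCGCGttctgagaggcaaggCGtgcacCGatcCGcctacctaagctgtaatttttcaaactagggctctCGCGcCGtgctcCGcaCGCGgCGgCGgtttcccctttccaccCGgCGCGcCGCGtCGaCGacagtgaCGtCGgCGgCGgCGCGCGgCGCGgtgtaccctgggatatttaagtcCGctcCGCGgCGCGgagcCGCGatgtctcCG
Mga (GRCm38.p6 chr2:119896978-119897277, plus strand): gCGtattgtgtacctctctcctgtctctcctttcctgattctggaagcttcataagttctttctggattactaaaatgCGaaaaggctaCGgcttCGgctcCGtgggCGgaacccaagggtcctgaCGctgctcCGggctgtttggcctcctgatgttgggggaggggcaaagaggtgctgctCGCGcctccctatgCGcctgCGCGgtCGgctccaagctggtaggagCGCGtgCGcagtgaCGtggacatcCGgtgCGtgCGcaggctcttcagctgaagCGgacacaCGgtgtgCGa
Slc29a1 (GRCm38.p6 chr17:45595197-45595496, minus strand): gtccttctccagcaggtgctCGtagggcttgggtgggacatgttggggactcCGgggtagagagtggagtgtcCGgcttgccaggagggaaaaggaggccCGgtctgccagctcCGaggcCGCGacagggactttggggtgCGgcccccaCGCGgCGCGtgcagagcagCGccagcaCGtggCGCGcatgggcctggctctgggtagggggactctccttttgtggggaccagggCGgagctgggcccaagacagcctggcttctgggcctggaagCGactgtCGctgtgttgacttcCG
Nktr (GRCm38.p6 chr9:121718931-121719230, plus strand): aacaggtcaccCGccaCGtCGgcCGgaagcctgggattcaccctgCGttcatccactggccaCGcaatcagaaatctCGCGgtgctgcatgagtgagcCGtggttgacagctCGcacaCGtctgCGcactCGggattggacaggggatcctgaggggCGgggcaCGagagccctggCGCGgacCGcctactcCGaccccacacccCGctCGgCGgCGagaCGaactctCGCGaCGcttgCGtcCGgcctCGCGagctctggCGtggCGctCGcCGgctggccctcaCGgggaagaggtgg

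Across the series, H3K4me3 counts totalled 18181192 to 30435735 per library, and 3 counts, taken as the floor, corresponded to 0.0953 to 0.169 CPM (read counts relative to TMM-scaled library size). Kdm5C signal over all 2321 regions was 17046 read equivalents in KO and 76709 in WT, from 1 library each and without scaling. The KO to WT ratio over these regions was 0.222 for Kdm5C and 0.614 for H3K4me1. Library totals are unknown, so lower depth and loss of Kdm5C cannot be told apart, and the knockout was not checked. Among the marker lists for cell types of the hippocampus, 24 of 29 pyramidal and granule neuron genes had an H3K4me3 region at a gene end. The summed H3K4me3 of the 6 lists differed between KO and WT under standard conditions by ratios of 0.889 to 1.07. The lowest belonged to vascular and mural markers, 19 of 20 of which had a region, with 472 and 525 CPM in KO and 571 and 551 CPM in WT. The highest belonged to astrocyte markers, 14 of 18 of which had a region, with 727 and 737 CPM in KO and 687 and 681 CPM in WT. The part of cell makeup in the results below was not tested, and in tissue a change in the number of marked cells and a change of the mark per cell cannot be told apart.

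Kdm5C was high at the distal regions in WT and low in KO. Its level, in read equivalents per kb (50 covered bases taken as 1 read), had a median of 17.3 in KO and 79.6 in WT, and the quartiles of the regions were 10.3 and 25.3 in KO and 62.6 and 109 in WT. The other 2111 regions had medians of 16.4 in KO and 79.5 in WT. Kdm5C was lower in KO at 209 of 210 distal regions without scaling, and the exception was a region inside Rfx5, a transcription factor gene for MHC class II, with 7.63 in KO and 0 in WT. The distal regions held 9.98% of all Kdm5C signal in KO and 9.87% in WT, close to their 9.05% share of regions. The sources used here do not say how the 2321 regions were selected, so these levels are a description.

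The highest Kdm5C levels in WT were at Pom121 and Mga. Pom121, a nucleoporin gene, had 5.21 read equivalents per kb in KO (exact Poisson 95% interval 1.16 to 16.4) and 221 in WT (183 to 265). Mga, which encodes a Max-binding repressor of the noncanonical PRC1.6 complex, had 29.5 in KO (19.6 to 43.3) and 215 in WT (187 to 248). Both pairs of intervals were separate, with KO low and WT high. The intervals cover counting error only, since reads lacking molecular identifiers may be copies of 1 molecule. Klhl35, a gene of the Kelch-like family, had 21.6 in KO and 194 in WT over 1004 bp, and Cpeb1, which encodes a regulator of mRNA polyadenylation and translation, had 24.5 in KO and 188 in WT. They were followed by Zfp428 (23.8 in KO, 183 in WT), the calcium sensor gene Stim1 (12.1 in KO, 176 in WT), the predicted gene Gm36166 (29.9 in KO, 173 in WT), the fatty acid elongase gene Elovl5 (15.04 in KO, 172 in WT) and the mRNA cap methyltransferase gene Cmtr2 (17.8 in KO, 171 in WT). Of these regions, Pom121, Mga and Cmtr2 overlapped a promoter window, Cpeb1, Zfp428 and Stim1 had a start within 2 kb, Klhl35 lay inside a gene farther from starts, and Gm36166 and Elovl5 between genes.

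H3K4me1 at the distal regions varied with their position. Its median was 8.05 read equivalents per kb in KO and 13.9 in WT, against 7.00 in KO and 11.8 in WT at the other 2111 regions. Regions between genes had medians of 9.27 in KO and 18 in WT, and regions inside genes without a start within 2 kb had 10.2 in KO and 16.4 in WT. Regions with a start within 2 kb had 5.32 in KO and 11.0 in WT. The 12 distal regions without H3K4me3 had 19.6 in KO and 28.2 in WT, and so the highest medians of H3K4me1 among these classes. Kdm5C did not order the classes in this way, with WT medians of 90.4, 76.8, 80.7 and 78.5 read equivalents per kb in the same sequence. Across the 210 regions Kdm5C and H3K4me1 in WT had Pearson's r of 0.12 and Spearman's rho of 0.06, a description over regions that share 2 libraries.

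The 5 highest H3K4me1 levels in WT were led by a region between genes next to Neat1, the RNA scaffold of paraspeckles. It had 42.6 read equivalents per kb in KO (18.4 to 83.9) and 70.1 in WT (36.8 to 118). A region inside Pisd-ps1, a pseudogene of phosphatidylserine decarboxylase, had 80.4 in KO and 64.7 in WT. Slc29a1, a nucleoside transporter gene, had 19.4 in KO and 51.7 in WT. Cpm, the gene of carboxypeptidase M, had 2.39 in KO and 47.0 in WT. Abcc4, an efflux transporter gene, had 19.1 in KO and 45.7 in WT. The regions at Cpm and Abcc4 are narrow, so these levels rest on few read equivalents even in WT. Neat1, Pisd-ps1 and Abcc4 were also among the 12 distal regions that overlap no H3K4me3 region.

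Those 12 regions were short, with a median of 162 bp. Among them the highest Kdm5C levels were at Tcam1, named for a testicular cell adhesion molecule, with 12.4 read equivalents per kb in KO and 157 in WT. Neat1 followed with 0 in KO (up to 19.6) and 141 in WT (90.3 to 203). A tRNA gene, n-TWcca6, had 6.62 in KO and 131 in WT, Rgs20, which encodes a regulator of G protein signalling, had 11.8 in KO and 94.8 in WT, and Pnrc2, which encodes a nuclear receptor coactivator, had 12.4 in KO and 90.7 in WT. The region inside Pisd-ps1 stood apart in KO, with 71.4 in KO (53.5 to 94.98) and 79.5 in WT (59.7 to 103), where the 2 intervals overlap. It was the highest Kdm5C level in KO among the 210, and 20 distal regions in all had over 0.5 of their WT level in KO.

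The knockout comparison of Kdm5C and H3K4me1 rests on 1 library against 1, whose totals outside these regions are unknown. Summed over the 210 regions, Kdm5C had 1702 read equivalents in KO and 7572 in WT, an unscaled ratio of 0.225, against 0.222 over all 2321 regions. Scaled by those totals, the ratio of the distal regions was 1.01 (95% counting interval 0.959 to 1.07), so their signal differed between KO and WT about as much as that of all regions did. H3K4me1 had 829 read equivalents in KO and 1364 in WT, an unscaled ratio of 0.608 and a scaled one of 0.990 (0.907 to 1.08). After scaling, Kdm5C in KO passed 1.5 times WT at 51 distal regions (22.8% of all 2320 regions with a WT value did) and fell short of WT by more than 1.5 times at 75 (36.2% of all). For H3K4me1 the counts were 46 (25.9% of 2169 regions) and 65 (35.3%). These differences have no replicate check.

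H3K4me3 over the distal regions was strong in all 6 groups. The median level of the 202 overlapping regions was 62.2 and 61.03 CPM in the KO standard libraries, against 59.7 and 60.9 CPM in WT. It was 62.0 and 61.6 CPM in KO novelty, against 60.0 and 59.4 CPM in WT novelty, and 61.3 and 62.9 CPM in ifKO, against 61 and 60.3 CPM in ifWT. The regions had a median width of 1586 bp and held 1.24% to 1.36% of all counts. That share was 1.36% and 1.34% in KO standard, against 1.28% and 1.26% in WT, and 1.34% and 1.33% in KO novelty, against 1.27% and 1.26% in WT novelty. It was 1.28% and 1.3% in ifKO, against 1.27% and 1.24% in ifWT. The mutant libraries did not overlap their controls in any of the 3 pairs, although with 2 libraries against 2 an exact permutation test cannot go below a p of 0.333. All 202 regions passed the filter on low counts, and the lowest count of any of them in any library was 74. Of the 202, 181 themselves lay more than 2 kb from gene ends, and 21 reached within 2 kb of one.

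The first H3K4me3 comparison asked where the mark differed in Kdm5c KO under standard conditions. By edgeR, with p values adjusted over all 35955 regions tested, 58 of the 202 regions rose in KO (28.7%, against 9.74% of all regions) and 6 fell (2.97%, against 3.67%). The median log2 change was 0.05 over the 202 and 0.01 over all regions, and 95 of the 202 (47.03%) had an unadjusted p under 0.05, against 27.96% of all regions. A log2 change of at least 0.5 was reached by 15 of the risen regions and by none of the fallen, whose changes lay between -0.22 and -0.17. At all 58 risen and all 6 fallen regions the KO and WT libraries did not overlap. Over the 202, libraries without overlap were found at 95 regions with KO higher and 66 with KO lower, where all regions had shares of 30.2% and 27.8%.

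The largest called rise was at Klhl35. At this region (chromosome 7, 99467493 to 99469421 of mm10), H3K4me3 was 62.0 and 60.2 CPM in KO standard, against 31.8 and 27.4 CPM in WT. It was 58.5 and 57.2 CPM in KO novelty, against 32.1 and 30.1 CPM in WT novelty, and 57.8 and 55.9 CPM in ifKO, against 37.3 and 34.9 CPM in ifWT. The mutant libraries were higher in all 3 pairs with no overlap, and the log2 change under standard conditions was 1.05 ± 0.07 (SE, adjusted p 1.0e-12). This region also had the fourth highest Kdm5C level, and its nearest listed transcript start lay 2052 bp away.

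Between genes, the region nearest to D130051D11Rik (chromosome 15, 85653435 to 85654980) had 43.2 and 43.3 CPM in KO standard, against 20.9 and 22.2 CPM in WT. It had 37.7 and 42.7 CPM in KO novelty, against 20.5 and 22.2 CPM in WT novelty, and 43.2 and 40.6 CPM in ifKO, against 21.9 and 24.4 CPM in ifWT. No mutant library overlapped its controls, with a log2 change of 1.01 ± 0.08 under standard conditions (adjusted p 8.3e-11). Its Kdm5C signal was 55.3 read equivalents per kb in KO and 107 in WT.

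Inside Sdcbp2, which encodes the PDZ protein syntenin-2 (chromosome 2, 151575284 to 151576839), KO standard had 46.4 and 44.8 CPM, against 26.1 and 24.3 CPM in WT, a log2 change of 0.86 ± 0.09 (adjusted p 2.5e-08). Inside Cpm (chromosome 10, 117675618 to 117677201), where H3K4me1 was among the highest of the distal regions, KO standard had 43.6 and 38.7 CPM, against 23.5 and 25.7 CPM in WT (0.74 ± 0.09, adjusted p 5.5e-07). Kdm5C at this region was 0 read equivalents per kb in KO (up to 27.5) and 156 in WT. Inside Btd, the biotinidase gene that recycles biotin (chromosome 14, 31661118 to 31662851), KO standard had 39.4 and 36.3 CPM, against 24.0 and 23.4 CPM in WT (0.67 ± 0.08, adjusted p 4.3e-07).

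Slc2a3, the gene of the main neuronal glucose transporter GLUT3 (chromosome 6, 122764096 to 122765361), had 33.2 and 33.4 CPM in KO standard, against 21.6 and 21.4 CPM in WT, a log2 change of 0.63 ± 0.08 (adjusted p 1.0e-06). The regions nearest to the predicted genes Gm46142 and Gm30149 rose by 0.67 ± 0.08 (adjusted p 2.9e-07) and 0.64 ± 0.07 (adjusted p 9.7e-08). At Ubtf, which encodes an RNA polymerase I transcription factor, a weak region of 323 bp had 8.13 and 8.88 CPM in KO standard, against 5.84 and 4.74 CPM in WT (0.69 ± 0.15, adjusted p 0.0022). A second region over the same Ubtf Kdm5C region rose by 0.25 ± 0.07 (adjusted p 0.016). Cyth1, which encodes an exchange factor for Arf GTPases, had 19.8 and 15.9 CPM in KO standard, against 13.3 and 10.1 CPM in WT (0.61 ± 0.13, adjusted p 0.0020). The Ubtf call was lost without WT standard replicate 2 (adjusted p 0.102), and the Cyth1 call without KO standard replicate 1 (0.0819) or WT standard replicate 2 (0.144).

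**Figure D1:**
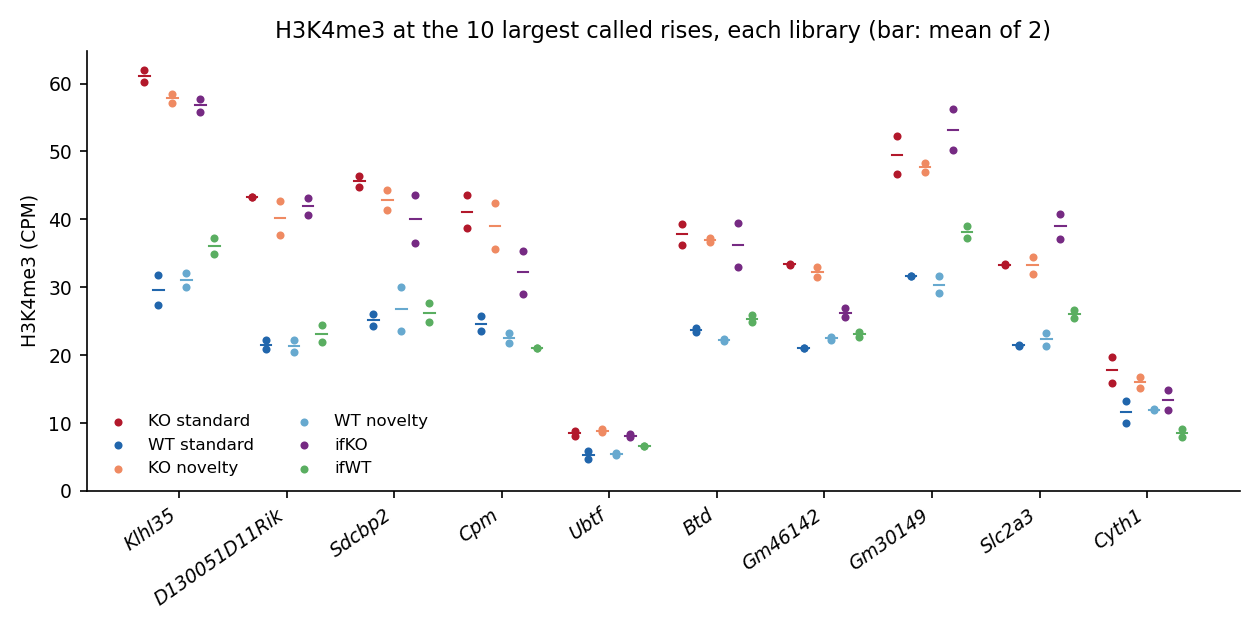
H3K4me3 in CPM on the vertical axis at the 10 largest called rises over distal Kdm5C regions, with all 12 libraries as points coloured by group and short bars for the mean of the 2 libraries. KO lies above WT without overlap at every one of the 10 under standard conditions, with the widest gap at Klhl35 (62.0 and 60.2 against 31.8 and 27.4 CPM).

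The falls were small. Arntl, which encodes the clock transcription factor BMAL1 (chromosome 7, 113207456 to 113209042), had 83.1 and 88.9 CPM in KO standard, against 101 and 98.9 CPM in WT, a log2 change of -0.22 ± 0.06 (adjusted p 0.0080). A second, weaker region over the same Arntl Kdm5C region did not move with it (0.10 ± 0.10, adjusted p 0.57). Dcun1d5, a gene of cullin neddylation, had 123 and 116 CPM in KO standard, against 136 and 141 CPM in WT (-0.21 ± 0.05, adjusted p 0.0066). The ubiquitin ligase genes Nedd4l (-0.21 ± 0.07) and Trim11 (-0.20 ± 0.05) and the calcium sensor gene Stim1 (-0.19 ± 0.06) had adjusted p of 0.033, 0.014 and 0.035. Each of these 5 calls was lost when single libraries were left out. The log2 change was -0.10 at Nedd4l without KO standard replicate 2 and -0.13 at Stim1 without KO standard replicate 1. Without KO standard replicate 1 the adjusted p was 0.135 for Arntl, 0.085 for Trim11 and 0.307 for Stim1, and without KO standard replicate 2 it was 0.10 for Dcun1d5, 0.458 for Nedd4l and 0.060 for Trim11. Without WT standard replicate 1 it was 0.088 for Arntl, 0.071 for Nedd4l, 0.14 for Trim11 and 0.158 for Stim1, and without WT standard replicate 2 it was 0.102 for Dcun1d5, 0.27 for Nedd4l and 0.152 for Stim1. With libraries scaled by their totals, Nedd4l and Stim1 were not called (0.0762 and 0.0908). Over the 202 regions the count of risen regions was 30 without KO standard replicate 1 and 30 without WT standard replicate 2. The count of fallen regions was 3 without KO standard replicate 1, 2 without KO standard replicate 2, 1 without WT standard replicate 1 and 2 without WT standard replicate 2.

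Rises were counted more often away from transcript starts. Under standard conditions, 17 of 39 H3K4me3 regions over distal regions between genes rose (43.6%, median log2 change 0.21), as did 25 of 54 inside genes with no start within 2 kb (46.3%, median 0.13). With a start within 2 kb, 13 of 101 rose (12.9%, median -0.03), and on chromosome 18 it was 3 of 8. The classes also differed in level, with median mean log2 CPM of 4.97 between genes, 5.67 inside genes without a start and 6.29 with a start. Below a mean log2 CPM of 6, 14 of 34 rose between genes, 22 of 36 inside genes without a start and 7 of 29 with a start. Above it, 3 of 5 rose between genes, 3 of 18 inside genes without a start and 6 of 72 with a start. No test of these differences between classes was made, and position and level are joined in these data.

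**Figure D2:**
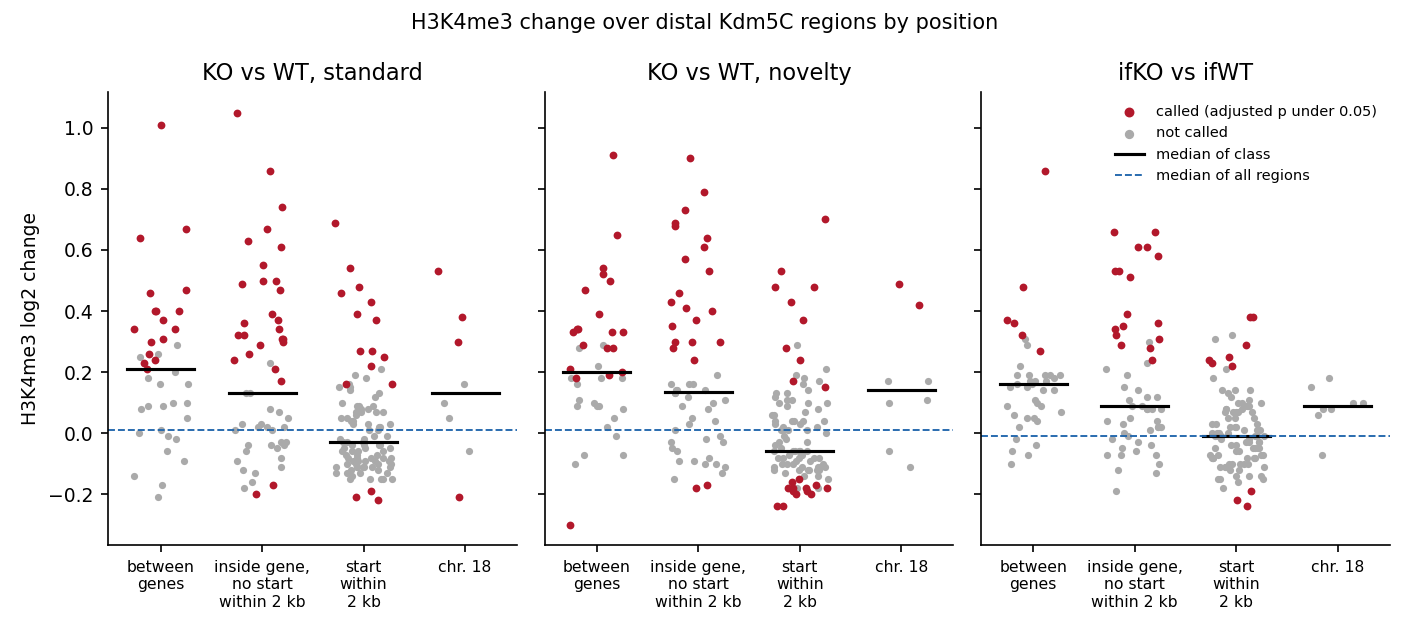
H3K4me3 log2 change over distal Kdm5C regions (vertical axis) by position of the region, for KO against WT under standard conditions, KO against WT after novelty, and ifKO against ifWT; red points passed an adjusted p of 0.05, black bars are class medians and the dashed line is the median of all tested regions. Medians are higher between genes (0.21, 0.20 and 0.16) than with a start within 2 kb (-0.03, -0.06 and -0.01).

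The share of risen regions was also compared within ranges of H3K4me3 level. Levels still differed within a range. From 4 to 6, the median of mean log2 CPM was 5.10 over distal and 5.59 over other Kdm5C regions. It was 4.86 at distal H3K4me3 regions without a Kdm5C region and 5.27 over all regions. In the range of mean log2 CPM from 4 to 6, 43 of 97 regions over distal Kdm5C regions rose (44.3%), against 17.4% of 757 over the other Kdm5C regions, 15.8% of 1191 distal H3K4me3 regions without a Kdm5C region and 10.1% of all 8084. Above 6, 12 of 98 rose (12.2%), against 2.43% of 1317, 3.44% of 436 and 2.03% of all 6111. Below 4 there were only 7, of which 3 rose. Falls went by level too, with 6 of 98 above 6 (6.12%, against 12.7% of all 6111). From 4 to 6, 0 of 97 fell, against 5.27% of all 8084. Without regard to level, 8.19% of the 2112 regions over other Kdm5C regions rose and 6.82% fell, with a median log2 change of -0.06. H3K4me1 and H3K4me3 change went together to some extent. Among regions whose distal Kdm5C region had H3K4me1 in WT above the median, 44 of 101 rose, and 14 of 101 at or below it, with median H3K4me3 levels of 5.59 and 6.20 log2 CPM. For Kdm5C in WT the same split gave 34 of 101 and 24 of 101. Across the 202 regions the log2 change had Pearson's r of 0.41 with H3K4me1 per kb in WT, 0.23 with Kdm5C per kb in WT and -0.51 with the mean log2 CPM of H3K4me3 itself, as a description over regions that share libraries. Distance to gene ends had an r of 0.06.

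**Figure D3:**
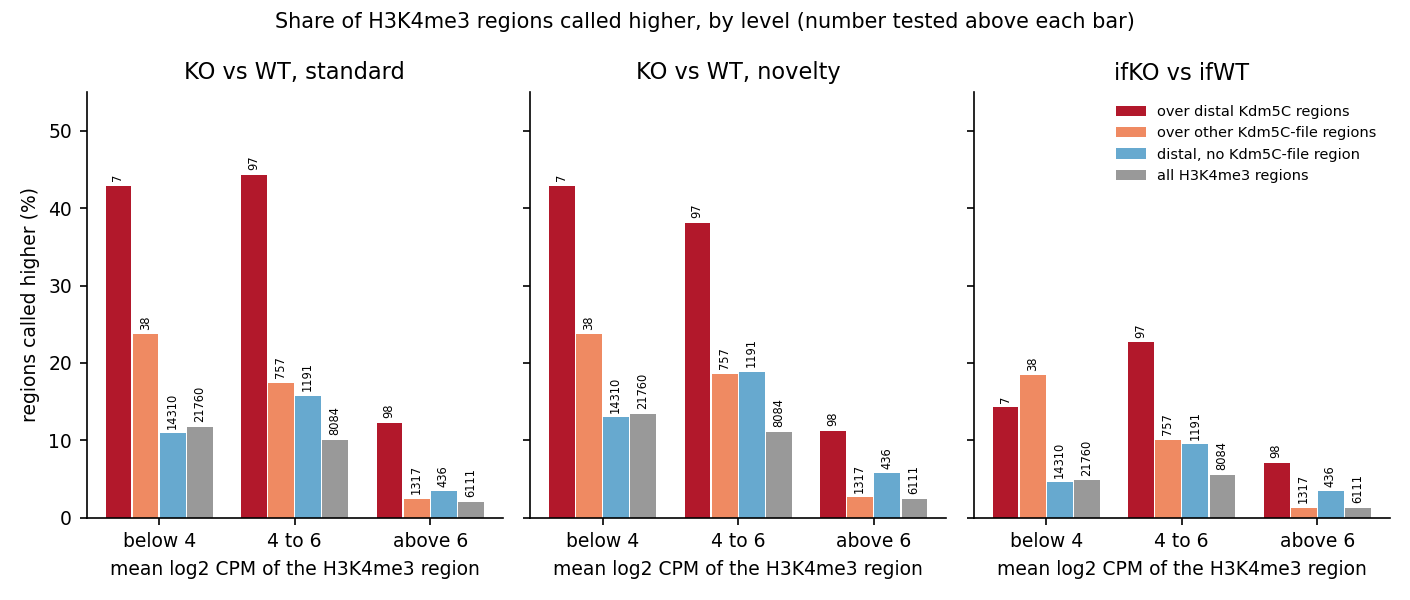
Percentage of H3K4me3 regions called higher in the mutant (vertical axis) by mean log2 CPM of the region, in the 3 mutant comparisons, for regions over distal Kdm5C regions, over the other Kdm5C regions, distal regions without one, and all regions; numbers above bars are regions tested. In the range 4 to 6 the share over distal Kdm5C regions is 44.3%, 38.1% and 22.7%, against 10.1%, 11.1% and 5.54% of all regions.

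KO and WT were also compared after novelty, from libraries of their own. By edgeR 51 of the 202 regions rose in KO (25.2%, against 11.1% of all regions) and 16 fell (7.92%, against 5.94%), with a median log2 change of 0.06 (0.01 over all). Of these calls 76.1% were higher, and with libraries scaled by their totals 65 rose and 3 fell, or 95.6% higher. By level in the main fit, 12 of 98 regions above a mean log2 CPM of 6 fell (12.2%, against 21.5% of all 6111). From 4 to 6, 4 of 97 fell (4.12%, against 8.13% of all 8084). D130051D11Rik (0.91 ± 0.08, adjusted p 5.5e-10), Klhl35 (0.90 ± 0.07, adjusted p 1.8e-11) and Cpm (0.79 ± 0.09, adjusted p 1.3e-07) had the largest rises, followed by Btd (0.73 ± 0.08, adjusted p 6.0e-08) and Ubtf (0.70 ± 0.15, adjusted p 0.0011). By position, 19 of 39 rose between genes, 20 of 54 inside genes without a start and 10 of 101 with a start, where 13 fell. Libraries of KO and WT did not overlap at any of the 67 called regions. Over the 202, libraries without overlap were found at 96 regions with KO higher and 64 with KO lower, where all regions had shares of 31% and 28.2%. The summed H3K4me3 of the 6 marker lists differed between KO and WT after novelty by ratios of 0.922 to 1.07.

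Among the falls after novelty, the region nearest to Mirlet7a-1, a gene of the let-7 miRNA family, had 40.9 and 38.0 CPM in KO novelty, against 46.2 and 50.8 CPM in WT novelty, a log2 change of -0.30 ± 0.07 (adjusted p 0.0051). Dcaf1, which encodes a substrate receptor of a CUL4 ubiquitin ligase, had 75.9 and 78.2 CPM in KO novelty, against 90.6 and 91.1 CPM in WT novelty (-0.24 ± 0.05, adjusted p 0.0025). The Myc antagonist gene Mxi1 fell by 0.24 ± 0.07, the ciliary transport gene Ift46 by 0.20 ± 0.06 and the growth factor gene Tgfb2 by 0.20 ± 0.06 on the log2 scale, with adjusted p of 0.022, 0.025 and 0.016. These calls too depended on single libraries. Without KO novelty replicate 1 the adjusted p was 0.057 for Dcaf1, 0.238 for Mxi1, 0.146 for Ift46 and 0.113 for Tgfb2. Without KO novelty replicate 2 it was 0.084 for Mirlet7a-1, 0.099 for Ift46 and 0.082 for Tgfb2. Without WT novelty replicate 1 it was 0.056 for Mxi1, and without WT novelty replicate 2 it was 0.158 for Mirlet7a-1, 0.181 for Mxi1, 0.245 for Ift46 and 0.215 for Tgfb2. With library totals as the scale, Mxi1 and Ift46 were not called (0.0563 and 0.0781). The count of risen regions was 32 without KO novelty replicate 2 and 28 without WT novelty replicate 2. Fallen regions numbered 1 when KO novelty replicate 1 or WT novelty replicate 2 was left out and 3 when KO novelty replicate 2 was. Averaged over both conditions, 72 of the 202 rose (18.1% of all regions did) and 31 fell (13.9% of all). Above a mean log2 CPM of 6, 26 of 98 fell in the average (26.5%, against 46.1% of all 6111). The count of 31 was 17 without KO novelty replicate 1, 20 without KO standard replicate 2 and 15 without WT novelty replicate 2.

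The ifKO line, on another background, gave a further set of libraries, with none shared. By edgeR 30 of the 202 regions rose in ifKO (14.9%, against 4.41% of all regions) and 3 fell (1.49%, against 0.976%), or 5.38% of all regions in either direction, with a median log2 change of 0.05 (-0.01 over all). D130051D11Rik rose by 0.86 ± 0.09 (adjusted p 1.0e-08) and Klhl35 by 0.66 ± 0.07 (adjusted p 8.0e-08). Inside Cyth1, ifKO had 14.8 and 12.0 CPM, against 9.11 and 7.95 CPM in ifWT (0.66 ± 0.15, adjusted p 0.0050). Cpm rose by 0.61 ± 0.10 (adjusted p 8.1e-05) and Sdcbp2 by 0.61 ± 0.10 (adjusted p 4.1e-05). By position, 6 of 39 rose between genes, 17 of 54 inside genes without a start and 7 of 101 with a start. Oligodendrocyte lineage markers, 17 of 21 of which had an H3K4me3 region at a gene end, summed to 460 and 421 CPM in ifKO, against 487 and 482 CPM in ifWT. Microglia markers, 16 of 18 with a region, summed to 132 and 138.5 CPM in ifKO, against 146.5 and 149 CPM in ifWT. Neither list overlapped between ifKO and ifWT, with ratios of 0.910 and 0.917, and the 6 lists ran up to 1.08 for pyramidal and granule neuron genes. Their part in the ifKO calls was not tested.

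The 3 regions that fell in ifKO all had a transcript start within 2 kb. They were among 98 above a mean log2 CPM of 6 (3.06%, against 3.83% of all 6111). Ptp4a2, a phosphatase gene, had 96.2 and 103 CPM in ifKO, against 123 and 112 CPM in ifWT (-0.24 ± 0.06, adjusted p 0.0093). Pom121 had 83.6 and 91.4 CPM in ifKO, against 109 and 94.9 CPM in ifWT (-0.22 ± 0.07, adjusted p 0.042), and the zinc finger gene Zfp800 fell by 0.19 ± 0.06 on the log2 scale (adjusted p 0.035). Without ifKO replicate 1 the adjusted p was 0.189 for Ptp4a2, 0.423 for Pom121, 0.277 for Zfp800 and 0.184 for Cyth1. Without ifWT replicate 1 it was 0.211 for Ptp4a2, 0.519 for Pom121 and 0.491 for Zfp800, and without ifWT replicate 2 it was 0.078 for Cyth1. The log2 changes without ifWT replicate 1 were -0.12 at Pom121 and -0.11 at Zfp800. Pom121 and Zfp800 were not called in a fit to the ifKO cohort alone (0.099 and 0.156), nor was Pom121 with DESeq2 (0.0571) or limma-voom (0.0663). Neither was called when either KO novelty replicate or WT standard replicate 2 was left out, at adjusted p of 0.0503 to 0.0569, nor was Zfp800 without WT standard replicate 1 (0.0522). The count of risen regions was 16 without ifKO replicate 1 and 16 without ifWT replicate 2. The count of fallen regions was 0 without ifKO replicate 1 or ifWT replicate 1, 5 without ifWT replicate 2, and 1 when either KO novelty replicate or WT standard replicate 2 was left out.

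These 3 comparisons have no library in common. Of the 58 risen under standard conditions 44 also rose after novelty (75.9% of the 58 and 86.3% of the 51), where 7.27% of all regions rose in both. In ifKO 25 of the 58 also rose (43.1% of the 58 and 83.3% of the 30), where 3.4% of all regions rose in both. Of all regions risen under standard conditions, 74.7% also rose after novelty and 34.9% in ifKO, so the share after novelty was near that of all risen regions. All 58 were positive after novelty and 57 of 58 were positive in ifKO, where 99% and 83.6% of all regions risen under standard conditions were, with median log2 changes of 0.36 and 0.24, against 0.37 under standard conditions itself. Across the 202 regions the changes under standard conditions had Pearson's r of 0.92 with those after novelty and 0.85 with those in ifKO, as a description over regions that are not independent. There were 2 regions that fell under both conditions (33.3% of the 6 and 12.5% of the 16), as 1.53% of all regions did, and 0 that fell under standard conditions and in ifKO, as 0.17% of all did. Of all regions fallen under standard conditions, 41.6% also fell after novelty and 4.62% in ifKO. All 6 that fell under standard conditions were negative after novelty and 4 of 6 were negative in ifKO. Of all regions fallen under standard conditions, 98.1% were negative after novelty and 89.7% in ifKO. All 16 that fell after novelty were negative under standard conditions and 15 of 16 were negative in ifKO.

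There were 23 regions that rose in all 3 comparisons (11.4% of the 202, against 3.13% of all regions) and 0 that fell in all 3 (0.12% of all regions did). They included Klhl35, D130051D11Rik, Sdcbp2, Cpm, Btd, Gm30149, Slc2a3 and Cyth1, described above, and Mga and Cpeb1, which like Klhl35 had high Kdm5C. At Mga (chromosome 2, 119896654 to 119898667) H3K4me3 was 58.3 and 58.3 CPM in KO standard, against 45.6 and 44.9 CPM in WT. It was 60.8 and 59.0 CPM in KO novelty, against 49.5 and 43.3 CPM in WT novelty, and 49.8 and 50.8 CPM in ifKO, against 41.0 and 36.4 CPM in ifWT. The 3 log2 changes at Mga were alike, at 0.37 ± 0.07, 0.37 ± 0.07 and 0.38 ± 0.07 (adjusted p 2.3e-04, 1.3e-04 and 6.5e-04). At Cpeb1 (chromosome 7, 81453096 to 81455684) they were 0.48 ± 0.06, 0.48 ± 0.06 and 0.29 ± 0.06. At Slc29a1, whose promoter window is printed above, they were 0.54 ± 0.08, 0.43 ± 0.08 and 0.38 ± 0.09. Others were Camta1, a calmodulin-binding transcription activator gene (0.50, 0.64 and 0.36), Faim2, a neuronal gene that inhibits Fas-driven apoptosis (0.49, 0.61 and 0.53), Fmnl1, a formin gene of the actin cytoskeleton (0.37, 0.53 and 0.39), Cbx7, which encodes a Polycomb protein (0.30, 0.37 and 0.35), and Arid4a, which encodes a chromatin protein that binds RB1 (0.21, 0.28 and 0.28). Also among the 23 were Gm34147, Kank3, Pigz, Rhof, Rpl30-ps6 and Ssc4d. High Kdm5C did not always go with a rise, since Pom121 had changes of -0.08, -0.14 and -0.22, Zfp428 0.04, 0.09 and 0.11, and Cmtr2 0.08, 0.10 and 0.07, of which only the ifKO fall of Pom121 was called.

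**Figure D4:**
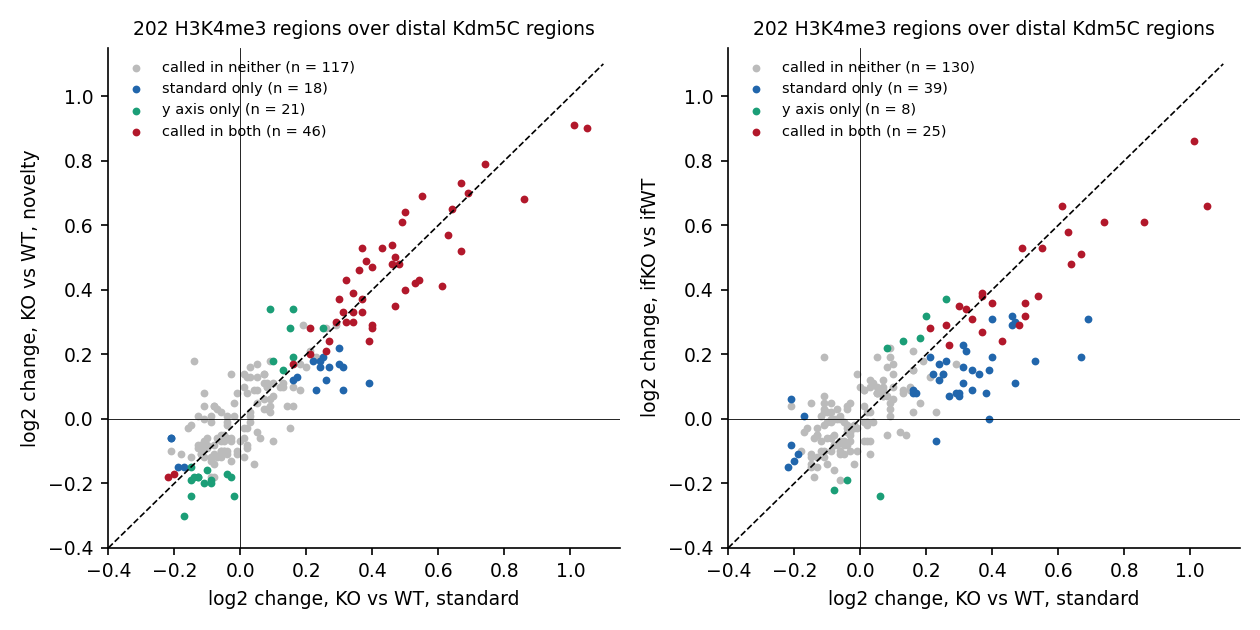
H3K4me3 log2 change at the 202 regions after novelty (left) and in ifKO against ifWT (right) on the vertical axis, against the change in KO under standard conditions on the horizontal axis; colours show in which comparison a region passed an adjusted p of 0.05, and the dashed line marks equal changes. The 2 regions farthest right, Klhl35 and D130051D11Rik, are high in both panels (0.90 and 0.91 after novelty, 0.66 and 0.86 in ifKO).

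The difference between the KO effect under standard conditions and the ifKO effect was tested directly. By edgeR 3 of the 202 regions had a larger change in KO (0.651% of all regions did) and 0 a smaller one (0.0501% of all), with 19 (9.41%) at an unadjusted p under 0.05, against 8.46% of all regions. Near Gm46142 H3K4me3 was 33.3 and 33.4 CPM in KO standard, against 21.0 and 21.1 CPM in WT, and 26.9 and 25.6 CPM in ifKO, against 23.5 and 22.7 CPM in ifWT. The KO standard libraries stood higher above WT than ifKO did above ifWT, with a difference of 0.48 ± 0.12 log2 (adjusted p 0.047). Inside Ccdc85c, which encodes a coiled-coil protein, the difference was 0.38 ± 0.09 (adjusted p 0.030), and near Gm36166 it was 0.36 ± 0.09 (adjusted p 0.037). None of the 3 was called with DESeq2 (0.0719 to 0.103) or limma-voom (0.075 to 0.0975). The Gm46142 call was lost without any 1 of the 12 libraries (0.0573 to 0.211). The Ccdc85c call was lost without KO standard replicate 2 (0.205), WT standard replicate 1 (0.113) or 2 (0.166), ifKO replicate 1 (0.0573) or ifWT replicate 1 (0.159). The Gm36166 call was lost without any 1 KO library, either WT standard library, ifKO replicate 1 or ifWT replicate 1 (0.0525 to 0.252). KO and ifKO differ in allele, cohort and background together, so these cannot be told apart.

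Novelty itself was compared with standard housing in each genotype. In WT 0 of the 202 regions were called by edgeR (0.00556% of all regions were), and DESeq2 and limma-voom called 0 too. An unadjusted p under 0.05 in edgeR was found at 7 (3.5%), against 4.67% of all regions. In KO 0 were called (0 of all), with 7 at an unadjusted p under 0.05 (3.5%, against 3.94% of all regions). For the interaction of genotype and novelty 0 were called (0 of all), with 3 at an unadjusted p under 0.05 (1.49%, against 2.93%). DESeq2 and limma-voom also called 0 of the 202 in both. In WT the smallest p belonged to Arhgef15, an endothelial exchange factor gene, with 29.5 and 28.5 CPM after novelty, against 36.7 and 32.1 CPM under standard conditions (-0.25 ± 0.08, adjusted p 0.77), then to Ptp4a2 (0.16 ± 0.06) and Nedd4l (-0.19 ± 0.07). In KO they were Ccdc85c (-0.16 ± 0.06), Mia2 (-0.13 ± 0.05) and Fmnl1 (0.20 ± 0.08), all at an adjusted p of 1. The smallest for the interaction were Ccdc85c (-0.27 ± 0.09), Pafah1b2 (-0.18 ± 0.08) and Mxi1 (-0.22 ± 0.11) and again all had an adjusted p of 1.

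None of the 210 distal regions was named for a gene of the 10 lists, which held 270 entries for activity-induced genes, H3K4 methylation enzymes, germline and meiosis genes, synaptic transmission genes and markers of 6 kinds of hippocampal cell. Within 50 kb of a distal region there were 5 such genes. Setd1b, an H3K4 methyltransferase gene, lay 2.46 kb from the distal region inside Rhof, a small GTPase gene. H3K4me3 at the Rhof region rose in KO under standard conditions by 0.55 ± 0.05 (edgeR adjusted p 1.9e-09). Ddx4, a germ cell helicase gene, lay 7.95 kb from the region at Slc38a9 (-0.10 ± 0.06, adjusted p 0.31), and Kmt2a, a methyltransferase gene, 30.3 kb from that at Ift46 (-0.11 ± 0.06, adjusted p 0.25). Calb2, an interneuron marker, lay 49.7 kb from the region at Cmtr2 (0.08 ± 0.07, adjusted p 0.52), and the clock and activity gene Per1 28.8 kb from the region at n-TWcca6, which had no H3K4me3 region.

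The limit of 2 kb fell within a continuous run of distances. Just outside it were regions at Fscn1 (1964 bp), Unk (1970 bp) and Igfbp3 (1978 bp), with Kdm5C of 29.1, 19.9 and 19.1 read equivalents per kb in KO and 113, 162 and 60.3 in WT. Just inside it were Bcl2l1 (2010 bp), Mrpl48 (2039 bp) and Abcc4 (2042 bp), with 22.8, 12.6 and 34.5 in KO and 88.5, 94.7 and 77.5 in WT.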

How the data were processed

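The deposited H3K4me3 files hold 1 raw read count per region and library, per the file headers, for 36005 regions, of which 9 repeats were removed. The deposited Kdm5C and H3K4me1 files hold a signal per region, called raw counts in the file headers, whose values behave as covered bases, and each 50 of them were counted here as 1 read equivalent. The submitters' processing notes name mm10 as the build and featureCounts, R 3.3, DESeq2 1.10.0, MACS2 2.1.0, Bowtie2 2.2.9 and SAMtools 1.3.1 as tools. The sources used here do not say how the regions were defined. Coordinates are as the files give them.

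Distal regions were found against 49997 genes of RefSeq's GRCm38.p6 table. All 12 H3K4me3 libraries were fitted in edgeR 4.0.16 under R 4.3.3 (TMM, filterByExpr, which removed 41 regions, quasi-likelihood F tests, Benjamini-Hochberg threshold 0.05 over 35955 regions). "Called", "rose" and "fell" refer to that threshold. The tests were checked on simulated data. Standard errors come from the F statistic, and CPM use TMM-scaled sizes. The labels give separate pools as replicates, and p values rest on a spread between pools that is shared over all 6 groups. That spread was unequal. As chi-square per degree of freedom between the 2 libraries of a group, it was 7.64 in ifKO and 4.46 in ifWT. In the groups of the KO cohort it was 2.24 to 2.78, so the shared spread may be too small for calls in ifKO. Replicate numbers paired no samples. Alternatives were RLE and library-total scaling, no filter, DESeq2 1.42.0, limma-voom (limma 3.58.1), a replicate block, single-cohort fits, each library left out, other distance limits and overlaps, and, chosen after seeing the data, 2 stricter definitions of distal. Library totals behind Kdm5C and H3K4me1 are unknown, and input libraries were not analysed here.

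The members, gene lists and tests were chosen with earlier results of these data known. Named regions are the 10 highest for Kdm5C and 5 highest for H3K4me1 in WT, the 5 highest for Kdm5C without H3K4me3, the 10 largest rises and 5 largest falls called in KO under standard conditions, the 5 largest of each in the other mutant comparisons, the 3 smallest p for novelty, and 3 on either side of the distance limit. A region that this rule names is not reported here. Other names were chosen after their values were seen. Sequences around region centres were not analysed here.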

Additional observations from a re-analysis of the deposited data

Results flagged for a closer look

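The change under standard conditions in KO and the change in ifKO differed, by an edgeR test of the difference itself, at 3 of the 202 H3K4me3 regions over distal Kdm5C regions. This was 1.49%, against 0.701% of all regions, and DESeq2 and limma-voom called none of them. The difference was 0.48 log2 near Gm46142, where the KO change was 0.67 ± 0.08 and the ifKO change 0.19 ± 0.09. At Ccdc85c the difference was 0.38, with a KO change of 0.39 ± 0.06 and an ifKO change of 0.00 ± 0.06. Near Gm36166 it was 0.36, with a KO change of 0.47 ± 0.06 and an ifKO change of 0.11 ± 0.06. The level near Gm36166 also differed between cohorts, with 107 and 110 CPM in KO and 79.6 and 76.3 CPM in WT under standard conditions, against 60.4 and 62.8 CPM in ifKO and 59.7 and 54.4 CPM in ifWT. Background, cohort and allele differ together between both sets, and their part was not tested.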

How the results depend on the processing

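The number of distal Kdm5C regions was 318 with a limit of 1 kb, 106 with 5 kb, 326 with only the ends of protein-coding genes and 102 when regions also had to lie more than 2 kb from every RefSeq transcript start (chromosome 18 left out, a choice made after seeing the data). With 5 kb, 108 H3K4me3 regions were tested, and calls in KO under standard conditions numbered 37 (33 higher). After novelty there were 41 (31 higher, 10 lower), averaged 56 (40 higher, 16 lower) and in ifKO 21 (18 higher). Of all regions, 13.4%, 17.0%, 32.1% and 5.38% were called in these 4 comparisons. With protein-coding ends 314 regions were tested, and calls numbered 100 (89 higher, 11 lower), 114 (94 higher), 159 (119 higher) and 54 (51 higher). For KO minus ifKO there were 5, all higher. With 1 kb, 72, 66, 95 and 41 of 304 regions rose in these 4 comparisons and 13, 31, 54 and 5 fell. For KO minus ifKO 5 were called, all higher. Away from transcript starts, 42, 39, 51 and 23 of 93 regions rose and 2, 3, 8 and 0 fell, with 42 calls after novelty and 59 averaged. RLE scaling gave 11 falls under standard conditions, and library totals 3 there, 3 after novelty and 15 averaged. A fit to the ifKO cohort alone gave 27 calls (26 higher, 1 lower), against 33 in the main fit. KO minus ifKO gave 0 calls with DESeq2 and with limma-voom, 1 with RLE scaling and 5 with library totals, in each case all higher. Without scaling the KO to WT ratio was 0.225 for Kdm5C and 0.608 for H3K4me1, and scaling by the median ratio gave 1.11 for Kdm5C. Leaving out 1 library at a time gave 32 to 69 calls under standard conditions (30 to 61 higher, 1 to 8 lower), 29 to 77 after novelty (28 to 58 higher, 1 to 19 lower), 86 to 109 averaged (65 to 74 higher, 15 to 36 lower), 16 to 33 in ifKO (16 to 30 higher, 0 to 5 lower) and 0 to 4 for KO minus ifKO (0 to 4 higher, 0 to 0 lower). A group reduced to 1 library was assumed to vary like the others. Novelty and the interaction gave 0 calls in every fit run. The replicate block, with correlations of -0.036 to 0.057 between samples of the same number within cohorts, gave 62 calls under standard conditions (56 higher) and 1 for KO minus ifKO. Of 36 calls at 25 named regions, 32 kept direction and call with DESeq2 and 34 under the block. The cause of these differences was not tested. Depth limits Kdm5C and H3K4me1, where many regions hold few read equivalents; 1 library stands for each genotype and no call can be made.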
